A study of Mus musculus with 4 samples.

Results

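Apolipoprotein D (Apod) and 8 other genes whose proteins carry lipids or retinoids were examined in cells sorted from lower incisors of mice, teeth that never stop growing. The members were Apod, Apoe, Ptgds, Rbp4, Crabp1, Crabp2, Fabp4, Fabp5 and Clu, which are 9 of the 55487 genes in the deposited count table, and 8 of the 9 were among the 17128 genes kept for testing. Apod was selected on its difference between the knockout and control libraries in these same data, and the other 8 were chosen by family around it. The knockout over control values of all 9 are therefore a description, without a test.

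There were 2 groups of 2 libraries. The knockouts carried floxed Ptip alleles together with Sp7-cre, and the controls carried the floxed Ptip alleles without Cre, all on a C57 background at postnatal day 30. The sort removed CD45+, Ter119+ and Tie2+ cells and used no marker of Cre activity, and Sp7 is active in bone-forming and odontoblast lineages, so the libraries can also hold cells without recombination. Effects of Ptip loss and of carrying Cre cannot be told apart. Separate animals are not stated for the libraries of a group, so p-values measure only the spread between these samples, which may be technical.

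The libraries held 15154246 to 19142757 counts. Paxip1, the gene of Ptip, had 111 and 71 counts in knockouts 1 and 2, against 407 and 696 in controls 1 and 2 (7.50-fold lower). edgeR's quasi-likelihood test, with Benjamini-Hochberg adjustment over the 17128 genes, called 0 of them (0.0%) at 0.05, and 1254 higher and 1694 lower genes passed 0.05 before adjustment. limma-voom called 0 genes, and DESeq2 called 458 higher (2.46% of the 18594 genes with an adjusted p) and 958 lower (5.15%). The cells are labelled as dental pulp and dental progenitors. Of 16 pulp and mesenchyme markers 15 were kept for testing, and so were 13 of 14 dental epithelium markers, among them Ambn, an enamel matrix gene, with 31000 and 41110 CPM (counts scaled to library size) in the knockouts and 52580 and 18170 CPM in the controls. Markers that the sort selected against were still counted: Ptprc, the CD45 gene, had 39.2 and 9.25 CPM in the knockouts against 140 and 144 CPM in the controls, and Tek, the Tie2 gene, 44.8 and 41.8 CPM against 21.7 and 81.2 CPM.

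The 9 proteins carry lipids or retinoids outside or inside the cell. Lipocalins are small secreted proteins with a barrel that encloses a hydrophobic ligand. Despite its name apolipoprotein D belongs to them, together with the retinol carrier of blood plasma (Rbp4) and a prostaglandin D synthase (Ptgds). Apolipoprotein E (Apoe) coats lipoprotein particles and presents them to receptors. Clusterin (Clu) is a secreted chaperone of unrelated structure that is also found on lipoproteins and is called apolipoprotein J. The cellular retinoic acid binding proteins (Crabp1, Crabp2) and the fatty acid binding proteins (Fabp4, Fabp5) are small related proteins that hold their ligands inside the cell. Retinoic acid is an established signal in tooth development, and binding proteins carry both retinol and the acid within and between cells.

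Apod was 15.8-fold higher in the knockouts. It had 52740 and 61555 counts in knockouts 1 and 2, against 2004 and 3920 in controls 1 and 2. In normalised values these were 2703 and 3450 CPM in the knockouts, against 139 and 249 CPM in the controls. Both knockout libraries lay far above both controls, and the gap between the groups was larger than the gap within either. The means were 3076 ± 528 CPM in knockouts and 194 ± 77.9 CPM in controls (SD, n = 2 each), a log2 fold change of 3.98 (SE 0.45). It stayed between 3.65 (without control 1) and 4.43 (without control 2) when any 1 library was left out. Ordered by signed log2 fold change, Apod stood at place 77 of the 17128 tested genes. Its share of all counts was 0.276% and 0.346% in knockouts 1 and 2, against 0.0132% and 0.0255% in controls 1 and 2.

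**Figure D1:**
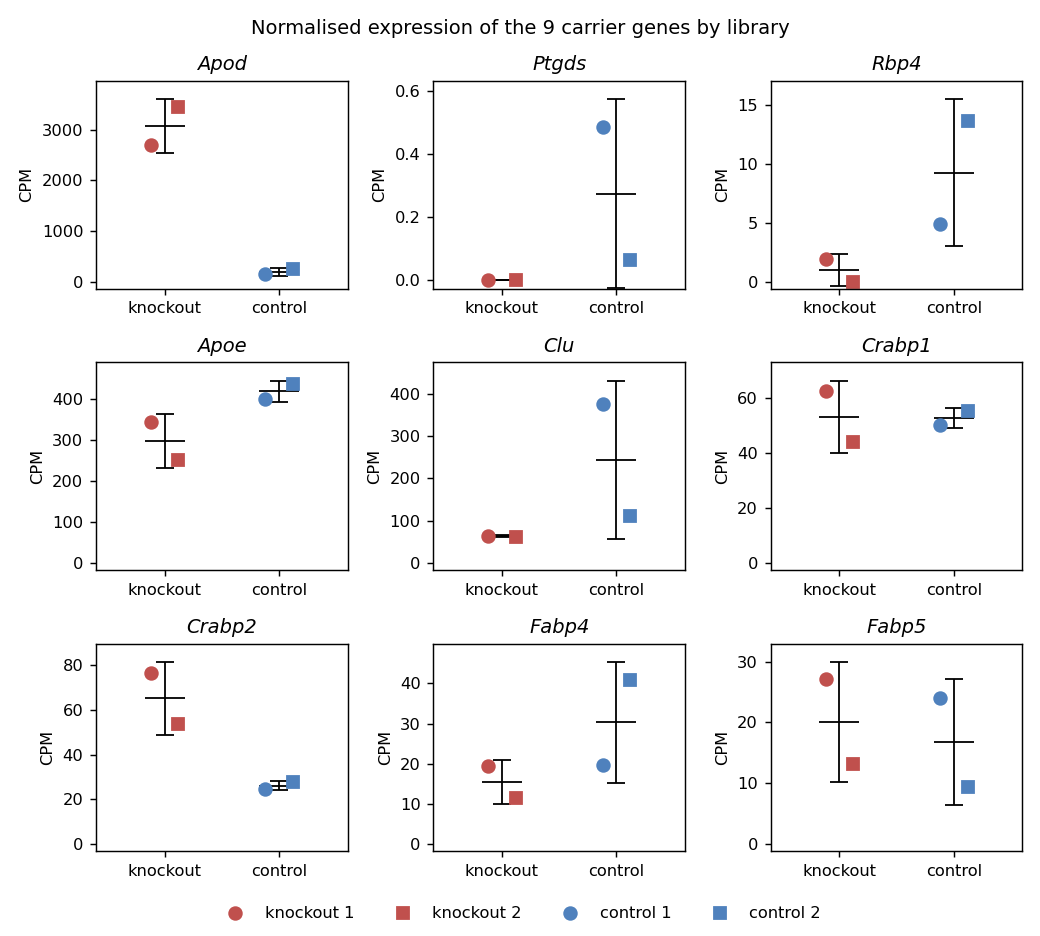
Normalised expression of the 9 genes in CPM on a linear axis for each gene, with knockout libraries in red and control libraries in blue. Horizontal bars are means and error bars are SD (n = 2). Apod lies at 2703 and 3450 CPM in the knockouts, against 139 and 249 CPM in the controls, and Crabp2 is the other gene with both knockouts above both controls.

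Apod (ENSMUSG00000022548) lies on the minus strand of chromosome 16 from 31296192 to 31314808 (GRCm38), and no other annotated gene shared exonic bases with it or with any other member. The 250 bases before the start of transcription were taken from RefSeq (GRCm38.p6), which held promoters of 5 of the 9 members. Apod is shown because its level differed most, Crabp1 because its levels overlapped, and Apoe, before the first base of its annotated gene, because it was lower in the knockouts. Capitals mark matches, on either strand and with overlaps counted, to any of 7 short motifs, which are the TATA box TATAAA, the CCAAT box, the E-box CANNTG, the nuclear receptor half-site AGGTCA, the GC box GGGCGG, the homeodomain core TAATTA and the antioxidant response core TGACNNNGC. The windows are chr16:31314809-31315058 (Apod, minus strand), chr9:54764498-54764747 (Crabp1, plus strand) and chr7:19699189-19699438 (Apoe, minus strand).
Apod: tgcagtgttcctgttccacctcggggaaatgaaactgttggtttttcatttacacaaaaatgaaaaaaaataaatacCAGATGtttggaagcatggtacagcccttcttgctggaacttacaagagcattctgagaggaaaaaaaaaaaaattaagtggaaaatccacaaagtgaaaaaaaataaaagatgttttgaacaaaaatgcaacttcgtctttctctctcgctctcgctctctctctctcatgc
Crabp1: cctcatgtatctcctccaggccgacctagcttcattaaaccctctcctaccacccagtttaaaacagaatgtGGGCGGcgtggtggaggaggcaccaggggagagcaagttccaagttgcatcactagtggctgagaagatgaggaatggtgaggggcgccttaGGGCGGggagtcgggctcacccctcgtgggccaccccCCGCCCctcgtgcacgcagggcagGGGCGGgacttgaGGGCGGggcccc
Apoe: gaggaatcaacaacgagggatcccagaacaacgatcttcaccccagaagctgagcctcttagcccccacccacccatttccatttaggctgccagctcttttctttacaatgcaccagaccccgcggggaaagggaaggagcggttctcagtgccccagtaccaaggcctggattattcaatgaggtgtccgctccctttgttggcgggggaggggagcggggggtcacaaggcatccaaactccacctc

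The Apod window held 1 match, an E-box that begins 173 bases before the start. E-boxes occur in 66.2% of the 32851 promoter windows of the same length. The Crabp1 window held 5 GC boxes, a motif found in 32.7% of windows. This Apoe window held no match to these letters. RefSeq lists 2 further Apoe starts inside the gene, and the window of 1 of them, chr7:19698622-19698871, held 2 TATA boxes and 1 E-box. Guanine and cytosine made up 36.4% of the Apod window, 63.6% of the Crabp1 window and 57.2% of the Apoe window. The other motifs occur in 12.4% (TATAAA), 33.8% (CCAAT), 14.0% (AGGTCA), 4.84% (TAATTA) and 10.2% (TGACNNNGC) of windows. These are matches of letters only.

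The other lipocalins among the members went the opposite way or were hardly counted. Rbp4 had 38 and 0 counts in knockouts 1 and 2, against 70 and 215 in controls 1 and 2. In CPM this was 1.95 and 0 in the knockouts, against 4.87 and 13.7 in the controls, and the groups did not overlap. The fitted log2 fold change was -3.23 (SE 1.53), and it was -2.20 without knockout 2. Knockout 2, with no count, lay at least 55.2-fold below the control mean, taking 3 counts of that library as its floor. Ptgds had 0 and 0 counts in the knockouts, against 7 and 1 in the controls, did not pass the filter on low counts and is given no fold change. A count of 0 allows up to 0.154 and 0.168 CPM in knockouts 1 and 2 (3 counts, counting error only).

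Clu and Apoe, whose proteins are found on lipoproteins, were lower in the knockouts. Clu had 64.4 and 61.4 CPM in knockouts 1 and 2, against 376 and 110 CPM in controls 1 and 2. The knockouts were close to each other, whereas the controls were far apart. The mean was 62.9 ± 2.08 CPM in knockouts and 243 ± 188 CPM in controls (SD, n = 2 each), and the fitted level was 3.87-fold lower (log2 fold change -1.95, SE 0.58). This size rested on control 1: without that library Clu was 1.73-fold lower, and without control 2 it was 6.12-fold lower. Apoe had 344 and 252 CPM in the knockouts, against 400 and 437 CPM in the controls. The groups did not overlap, and the fitted level was 1.40-fold lower (log2 fold change -0.49, SE 0.34). It was 1.18-fold lower without knockout 2 and 1.65-fold lower without knockout 1.

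The pair of retinoic acid binding genes parted. Crabp2, whose protein passes retinoic acid to its nuclear receptors, had 76.7 and 53.7 CPM in knockouts 1 and 2, against 24.7 and 27.6 CPM in controls 1 and 2. Each knockout exceeded each control, and the fitted level was 2.49-fold higher (log2 fold change 1.32, SE 0.37, and 1.05 to 1.598 with 1 library left out). Crabp1 had 62.7 and 44.1 CPM in the knockouts, against 50.4 and 55.6 CPM in the controls. These overlapped, with a log2 fold change of 0.01 (SE 0.36) whose sign depended on the library left out. Per length, in TPM (transcript levels scaled to a fixed total), the ratio of Crabp2 to Crabp1 was 0.743 and 0.739 in knockouts 1 and 2, against 0.297 and 0.302 in controls 1 and 2. Within each group the ratio was thus nearly constant, although both genes were higher in knockout 1 than in knockout 2.

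The fatty acid binding genes showed small or inconsistent differences. They lie 187480 bases apart on chromosome 3, with Fabp5 on the plus strand and Fabp4 on the minus strand. Fabp4, known from adipocytes, macrophages and capillary endothelium, had 19.3 and 11.5 CPM in the knockouts, against 19.7 and 40.9 CPM in the controls. The groups were separate only by the narrow step between knockout 1 and control 1, and the log2 fold change was -0.97 (SE 0.52), or -0.39 without control 2. Fabp5, known from epidermis, had 27.1 and 13.2 CPM in the knockouts, against 24.1 and 9.42 CPM in the controls. Those ranges overlapped, and the log2 fold change of 0.27 (SE 0.60) was 1.12 without control 1 and 0.74 without knockout 2, and changed sign without control 2 (-0.30) and without knockout 1 (-0.34). Fabp5l2, a near copy of Fabp5, had 1 count in knockout 1 and 0 in the other libraries, so few reads were assigned to it, but how reads with several matches were counted is not given in the sources used here.

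**Figure D2:**
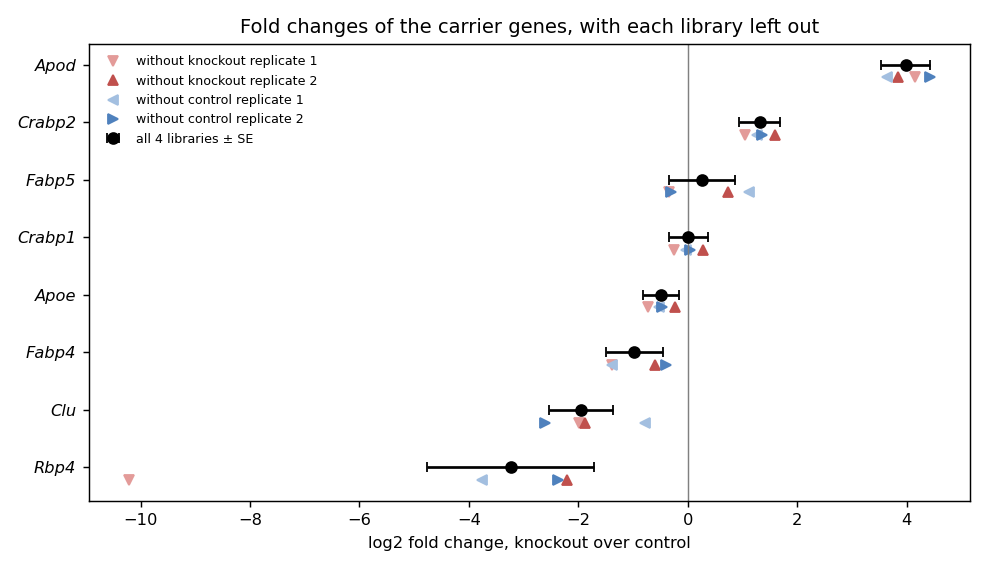
Fitted log2 fold changes, knockout over control, of the 8 tested members, with black points for all 4 libraries (bars: SE) and coloured triangles for fits with 1 library left out. Apod stays between 3.65 and 4.43, whereas Fabp5 and Crabp1 cross 0; the far left point of Rbp4 is the fit whose only knockout library had no count.

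Of the 8 tested members 2 (Apod and Crabp2) lay above and 4 (Rbp4, Clu, Fabp4 and Apoe) lay below the 2 controls in each knockout. Over all tested genes this held for 25.8% above and 24.9% below, and because the choice of members used this contrast nothing is read from their count. Rbp4 passed the low-count filter mainly through its control libraries. The median log2 fold change of the 7 tested members other than Apod was -0.49, against 0.0024 over all tested genes. Summed over the 8 other members, expression was 596 and 436 CPM in knockouts 1 and 2, against 900 and 694 CPM in controls 1 and 2, so that Apod alone made the sum of all 9 larger in the knockouts. Those sums were 3299 and 3885 CPM in the knockouts, against 1039 and 944 CPM in the controls.

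Levels of different genes were compared per exonic length. The length used for Fabp4, 4489 bases, equals its whole annotated span with any introns, and that for Fabp5 was 3567 bases. Their longest transcripts are nearly as long (4231 and 3238 bases). If shorter transcripts are the ones expressed, TPM of Fabp4 and Fabp5 is too low. Their places below are therefore not resolved, and the shares carry the same limit. In the knockouts the order by mean TPM was Apod (3757), Apoe (435), Crabp1 (208), Crabp2 (154), Clu (57.4), Fabp5 (17.5), Fabp4 (10.7), Rbp4 (2.22) and Ptgds (0). In the controls it was Apoe (600), Apod (237), Clu (204), Crabp1 (203), Crabp2 (60.8), Rbp4 (22.1), Fabp4 (21.4), Fabp5 (13.7) and Ptgds (0.47). In the knockouts the ranges of Crabp1 and Crabp2 overlapped, and so did those of Fabp4 and Fabp5. In the controls the ranges of Apod, Clu and Crabp1 overlapped one another, as did those of Rbp4, Fabp4 and Fabp5, so the order within these sets is not resolved. Apod was number 18 and number 13 by TPM among all 55227 genes with a length in knockouts 1 and 2, against number 1091 and number 403 in controls 1 and 2. It made up 76.1% and 84.9% of the members' summed TPM in the knockouts, against 12.1% and 21.7% in the controls.

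**Figure D3:**
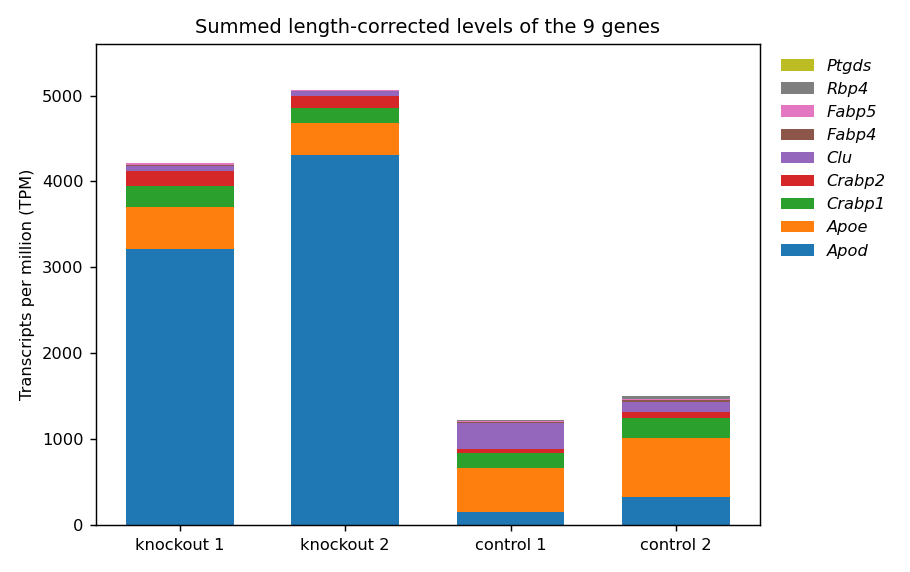
Stacked length-corrected levels (TPM, linear axis from 0) of the 9 genes in each library. TPM of Fabp4 and Fabp5 may be too low, because the lengths used for them may be too long. Apod fills 76.1% and 84.9% of the knockout bars, against 12.1% and 21.7% of the control bars, while the sum of the other 8 genes stays between 763 and 1174 TPM in all 4 libraries.

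Markers of several cell types moved between the same groups. In bulk RNA fewer cells of a type and less RNA per cell cannot be told apart. Over all tested genes 25.8% were above and 24.9% below both controls in each knockout, which applies beside each count here. Of 15 tested dental pulp and mesenchyme markers 11 were higher and 1 lower in both knockouts. Their summed expression was 4359 and 4268 CPM in the knockouts, against 1262 and 1798 CPM in the controls. Much of each sum was Msx1, with 2912 and 2525 CPM in the knockouts against 724.5 and 846.6 CPM in the controls. Sp7, the gene that names the Cre line of the knockouts, is also on this list (131 and 146 CPM against 43.9 and 60.7 CPM). Schwann cell markers, listed because Apod is known from peripheral nerve, had 2 of 11 tested members higher and 6 lower, and sums of 266 and 310 CPM in the knockouts against 519 and 691 CPM in the controls. Connective tissue fibroblast markers had 2 of 12 higher and 8 lower. Their sums overlapped, with 11180 and 14820 CPM in the knockouts against 8072 and 18450 CPM in the controls. Most of the knockout sums came from the 2 higher genes, so the overlap does not describe the 8 lower ones. These 2 were Lum (3965 and 4724 CPM against 1036 and 1879 CPM) and Serpinf1 (3320 and 4506 CPM against 873 and 1081 CPM). No marker of these 3 lists was at 0 in all libraries. Their part in the Apod difference was not tested.

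Markers of cells known to express Apoe, Fabp4 or Clu, and of other cells the sort could hold, are given beside the 25.8% of all tested genes above and 24.9% below both controls. Macrophage and leukocyte markers, a known source of Apoe, had 0 of 15 higher and 8 lower in both knockouts, with sums of 219 and 145 CPM in the knockouts against 483 and 343 CPM in the controls. Endothelial markers, beside which Fabp4 stands, had 0 of 12 higher and 6 lower, with sums of 1168 and 1219 CPM against 1417 and 2115 CPM. Dental epithelium markers had 0 of 13 higher and 8 lower, with Sox2 at 0 in all libraries. Their sums overlapped, with 35010 and 42120 CPM in the knockouts against 63860 and 22940 CPM in the controls. Most of each sum was Ambn, with 31000 and 41110 CPM against 52580 and 18170 CPM, so the overlap mainly describes that gene. The median log2 CPM of these markers, centred per gene, was highest in control 1 (1.32), the library in which Clu was also highest. It was -0.05 and -1.25 in knockouts 1 and 2 and 0.19 in control 2. The same medians of macrophage and erythroid markers also peaked in control 1 (0.74 and 1.09). Those of endothelial (0.69), pericyte (0.49), Schwann cell (1.05) and fibroblast markers (1.25) peaked in control 2, and that of pulp markers in knockout 2 (0.58). The peak in control 1 is thus not particular to dental epithelium. Pericyte markers had 0 of 10 higher and 3 lower, with overlapping sums of 600 and 1455 CPM against 888 and 1546 CPM. Erythroid markers had 0 of 11 higher and 10 lower, with sums of 122 and 130 CPM against 524 and 498 CPM. The part of these cells in the member differences was not tested.

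Retinoid genes around the carriers were examined as a list of 26, of which 22 were tested. In each knockout 6 lay above and 4 below the 2 controls (25.8% and 24.9% over all tested genes). The list median was 0.165, and 0.017 to 0.29 with 1 library left out. Calls below are DESeq2's, since edgeR called none. DESeq2 gave an adjusted p to 24 genes of this list and called 1 higher and 2 lower. Over all genes with an adjusted p it called 2.46% higher and 5.15% lower. Rarg, a retinoic acid receptor gene, rose to 169 and 242 CPM in the knockouts, against 70.6 and 98.2 CPM in the controls (2.43-fold, DESeq2 adjusted p = 0.0487), and the call was lost without knockout 1, knockout 2 or control 1. Aldh1a1, which makes retinoic acid from retinal, fell to 6.05 and 11.5 CPM, against 23.1 and 47.0 CPM in the controls (3.99-fold, DESeq2 adjusted p = 0.0131). That call was lost without knockout 1 and without control 2. Lrat, which stores retinol as an ester, had 2 and 0 counts in the knockouts, against 7 and 93 in the controls (DESeq2 adjusted p = 0.0142), with most counts in control 2. Without knockout 2 the call was lost, without control 2 DESeq2 gave no adjusted p, and the gene did not pass the edgeR filter. It was named after its values were seen.

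The 5 other genes above both controls in each knockout were not called. Stra6, the cell surface receptor for the Rbp4 protein, had 24.6 and 34.4 CPM in the knockouts, against 3.75 and 23.2 CPM in the controls. Rdh10, which oxidises retinol to retinal, had 72.4 and 166 CPM against 58.9 and 39.6 CPM. Dhrs3, which reduces retinal back to retinol, had 98.9 and 102 CPM against 43.2 and 42.9 CPM, and Rdh11, another retinal reductase, 39.9 and 36.0 CPM against 17.8 and 22.5 CPM. Rarb, a receptor gene known as a target of retinoic acid, had 38.5 and 25.3 CPM against 11.7 and 12.98 CPM. DESeq2 gave these 5 genes adjusted p-values of 0.0536 to 0.412.

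Other genes of retinoic acid synthesis and breakdown overlapped between the groups. Aldh1a3 had 227 and 88.4 CPM in the knockouts, against 124 and 109 CPM in the controls, and Aldh1a2 had 4.20 and 7.40 CPM against 2.29 and 11.8 CPM. The degrading enzyme genes overlapped as well, with Cyp26a1 at 30.6 and 17.5 CPM against 19.1 and 14.6 CPM, and Cyp26b1 at 3.28 and 22.03 CPM against 9.11 and 22.3 CPM. Rara, the remaining receptor of its family, had 45.9 and 47.9 CPM in the knockouts, against 89.2 and 49.3 CPM in the controls, and was separate only by the step between knockout 2 and control 2. Tgm2, a transglutaminase gene, had 52.1 and 43.3 CPM against 82.2 and 85.4 CPM, and Rdh5, a retinol dehydrogenase gene, 4.10 and 4.09 CPM against 7.65 and 6.30 CPM. None of these 7 was called by DESeq2.

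**Figure D4:**
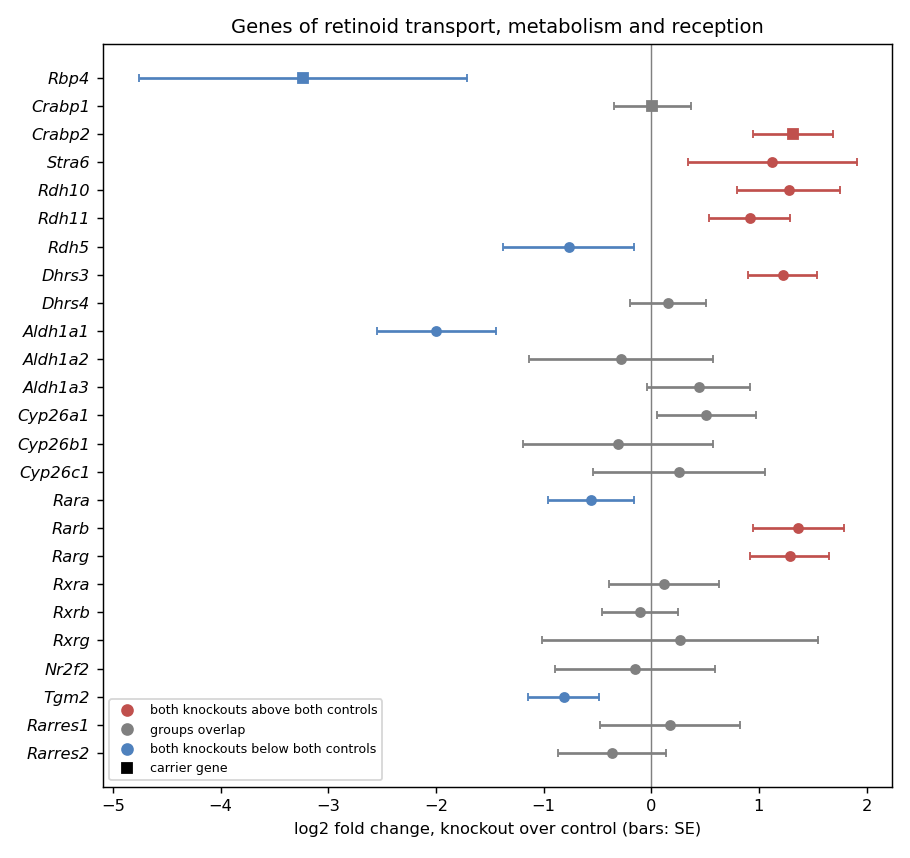
Log2 fold changes, knockout over control, of the 3 retinoid carriers among the members (squares) and of the 22 tested retinoid genes, with bars for SE. Red marks genes with both knockouts above both controls, blue the opposite and grey an overlap of the groups; Crabp2, Rdh10, Dhrs3, Rarb and Rarg lie between 1.22 and 1.37.

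Among 13 other intracellular binding protein genes 7 were tested, 4 of them higher and 0 lower in both knockouts, against 25.8% and 24.9% of all tested genes. The median log2 fold change was 0.38, and it was -0.76 without knockout 1 and 0.041 without control 2. Of the 7, DESeq2 called 2 higher, among them Fabp3, and 0 lower (2.46% and 5.15% over all genes with an adjusted p). Fabp3, the heart and muscle fatty acid binding protein gene, rose to 28.8 and 14.3 CPM in the knockouts, against 5.91 and 5.03 CPM in the controls (3.89-fold, DESeq2 adjusted p = 0.0194). The Fabp3 call was lost without any 1 of the 4 libraries, with 2.65-fold to 5.30-fold differences. Scp2, a sterol carrier gene, had 172 and 187 CPM against 118 and 121 CPM, and Dbi, which binds acyl-coenzyme A, 77.4 and 50.7 CPM against 50.3 and 47.9 CPM. Fabp7, a glial member, overlapped (3.23 and 0.95 CPM against 2.64 and 3.56 CPM), and Pmp2, the fatty acid binding protein of peripheral myelin, had 5 and 0 counts in the knockouts against 2 and 2 in the controls.

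Other lipocalins and apolipoproteins did not follow Apod. Of 20 listed, 9 were tested, 2 higher and 3 lower in both knockouts (25.8% and 24.9% over all tested genes), and DESeq2 called 0 of the 9, as did edgeR, in which 0 higher and 1 lower gene passed 0.05 before adjustment. The median log2 fold change was -0.11 (-0.58 without control 1), and the highest was 0.65. Lcn2, a lipocalin that binds iron siderophores, had 16.9 and 13.2 CPM in the knockouts, against 17.3 and 11.01 CPM in the controls. Apoc4 had 2 and 1 counts in the knockouts, against 17 and 13 in the controls, and Apol9a and Apol9b were also lower (1.23 and 0.34 CPM against 1.25 and 1.85 CPM for Apol9a; 0.46 and 0.39 CPM against 1.04 and 0.83 CPM for Apol9b). Reads of Apol9a and Apol9b are uncertain, because these genes are near-identical copies. Apom, Apoc1 and Apob did not pass the filter, with at most 6 counts in any library.

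Prostaglandin genes were spread widely around Ptgds, which itself was close to 0. Of 21 listed, 18 were tested, 5 higher and 7 lower in both knockouts, against 25.8% and 24.9% of all tested genes. The median log2 fold change was -0.60, but it was -0.31 to -0.20 with any 1 library left out and -0.174 in DESeq2. Of the 18, DESeq2 called 1 higher and 1 lower (2.46% and 5.15% over all genes with an adjusted p). Pla2g4a, which was named after its values were seen, releases arachidonic acid, a ligand that the Apod protein binds. It rose to 66.4 and 58.0 CPM in the knockouts, against 18.1 and 26.8 CPM in the controls (2.75-fold, DESeq2 adjusted p = 0.0278), and kept its call without control 2 but in none of the other 3 fits with a library left out. Ptger4, a prostaglandin E2 receptor gene, fell to 8.41 and 3.53 CPM, against 21.6 and 57.9 CPM (6.72-fold, DESeq2 adjusted p = 0.000609). The Ptger4 difference was 4.67-fold without knockout 2 and 3.75-fold without control 2, where the call was lost, and 11.1-fold without knockout 1.

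The remaining prostaglandin genes were not called. The cyclooxygenase genes overlapped, with Ptgs1 at 50.4 and 32.2 CPM in the knockouts against 28.8 and 51.3 CPM in the controls, and Ptgs2 at 36.0 and 4.596 CPM against 66.8 and 16.6 CPM. Hpgds, the blood cell prostaglandin D synthase, had 2.10 and 0.45 CPM against 2.71 and 6.49 CPM, without overlap. Ptgdr, a receptor gene for prostaglandin D2, had 1 and 15 counts in the knockouts and 0 and 0 in the controls and was not tested. Hpgd, which inactivates prostaglandins, had 3.90 and 6.00 CPM against 7.09 and 33.2 CPM, and Ptges, a prostaglandin E synthase gene, 25.9 and 34.3 CPM against 24.5 and 23.4 CPM. Ptger2 and Tbxas1, the genes of another prostaglandin E2 receptor and of thromboxane synthase, were lower in both knockouts (1.54 and 0.28 CPM against 5.15 and 4.39 CPM for Ptger2; 1.43 and 1.29 CPM against 7.02 and 4.90 CPM for Tbxas1).

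Receptors and enzymes that meet Apoe, Clu and lipoproteins showed no common direction. Of 25 listed, 24 were tested, 6 higher and 5 lower in both knockouts (25.8% and 24.9% over all tested genes). The median log2 fold change was 0.04, and -0.20 without knockout 2. Bsg, whose protein basigin has been described as an Apod receptor, had 1353 and 1200 CPM in the knockouts, against 796 and 532 CPM in the controls (log2 fold change 0.94, SE 0.36). Its groups did not overlap, and DESeq2 did not call it (adjusted p = 0.182). Lrp1, a receptor for Apoe, had 268 and 257 CPM against 146 and 252 CPM, whereas Vldlr (37.7 and 27.6 CPM against 35.7 and 50.3 CPM) and the lipid exporter gene Abca1 (32.2 and 43.0 CPM against 36.0 and 24.0 CPM) overlapped. Of the 24, DESeq2 called 0 higher and 1 lower (2.46% and 5.15% over all genes with an adjusted p). The called gene was Lpl, the lipoprotein lipase gene (DESeq2 adjusted p = 0.0380). Lpl had 46.3 and 48.8 CPM in the knockouts against 48.7 and 326 CPM in the controls. Without control 2 it was 1.05-fold lower (DESeq2 adjusted p = 0.972), so the call rested on that library. Lcat (2.36 and 2.97 CPM against 0.28 and 1.46 CPM) and Sort1 (7.33 and 2.97 CPM against 13.1 and 13.1 CPM) were among the genes with the widest separate differences.

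Adipocyte and PPAR target genes, which include the usual partners of Fabp4, were mostly overlapping. Of 23 listed, 18 were tested, 3 higher and 3 lower in both knockouts (25.8% and 24.9% over all tested genes). The median log2 fold change was -0.15, and -0.24 to -0.025 with 1 library left out. DESeq2 and edgeR called 0, and 0 higher and 1 lower gene passed 0.05 in edgeR before adjustment. Adipoq, the adiponectin gene, had 47 and 0 counts in the knockouts, against 185 and 344 in the controls. Rbp4 had the same order of libraries, but so had Fabp4, Hpgds and Ptger4, and how many of all genes share it was not counted. Plin1, a lipid droplet gene of adipocytes, had 10 and 27 counts in the knockouts against 0 and 1 in the controls, did not pass the edgeR filter and was not called by DESeq2 (adjusted p = 0.240). Pparg, the adipocyte regulator, had 2.05 and 3.92 CPM against 1.81 and 6.24 CPM, Cebpa 1.69 and 1.009 CPM against 1.18 and 0.95 CPM, and Cd36, a fatty acid transporter gene, 53.3 and 34.6 CPM against 45.2 and 146 CPM. Dgat1 (56.0 and 59.1 CPM against 42.0 and 19.2 CPM) and Acaca (18.1 and 28.7 CPM against 8.76 and 17.1 CPM), which act in lipid synthesis, lay above both controls in each knockout, and the lipase gene Lipe (21.7 and 25.2 CPM against 26.1 and 47.2 CPM) was lower, none of them called.

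**Figure D5:**
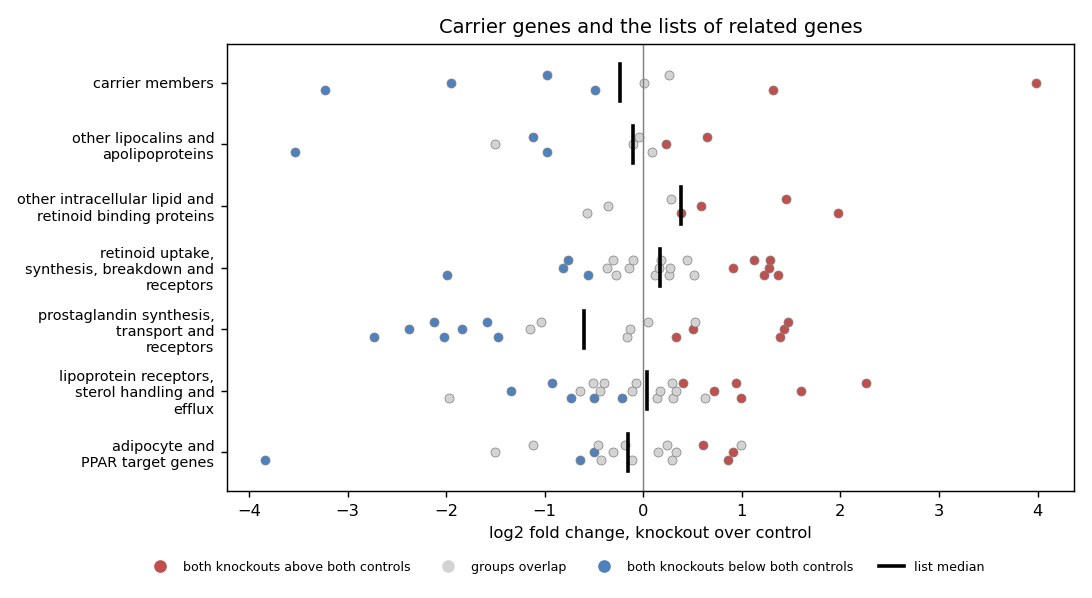
Log2 fold changes, knockout over control, of the tested members and of the tested genes of 6 related lists, 1 point a gene, with black bars at list medians. Apod (3.98) lies to the right of every other gene shown, and the list medians run from -0.60 (prostaglandin) to 0.38 (intracellular binding proteins).

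The genes most like Apod across the 4 libraries were found by the distance between log2 CPM profiles centred on each gene's mean. The nearest was Nfe2l3, a transcription factor gene of the cap'n'collar family, at a distance of 0.41. It had 159 and 300 CPM in knockouts 1 and 2, against 9.80 and 18.8 CPM in controls 1 and 2. The next were Cyp2s1 (0.59), Erv3 (0.61), Shisal2b (0.64) and Ccsap (0.67). Of these Ccsap, a gene of centrioles and spindles, had 35.3 and 55.0 CPM in the knockouts against 3.27 and 3.63 CPM in the controls, whereas Cyp2s1, Erv3 and Shisal2b had at most 5.1 CPM in any library, where the added prior count shapes the profile. No other member came close: Crabp2, the nearest, was at 2.85 and place 1249 of the ordered distances, and Rbp4 at 8.71. These distances rest on 4 libraries and describe only the pattern.

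Genes next to Apod on chromosome 16 were also read, in a window of 500 kb on either side that was set with the Apod difference known. Of 9 tested genes 5 lay above and 0 below both controls in each knockout, against 25.8% and 24.9% over all tested genes. The median log2 fold change was 0.83 and the largest 1.55. The nearest of the 9, Gm49767 at 4296 bases, was separate only by a narrow step at low counts. It had 1.486 and 1.345 CPM in the knockouts, against 0 and 1.337 CPM in the controls. Ppp1r2, which encodes an inhibitor of protein phosphatase 1 and ends 20915 bases from Apod, had 140 and 203 CPM in the knockouts, against 75.4 and 99.4 CPM in the controls. Acap2, farther on the same side, had 81.2 and 109 CPM against 44.99 and 62.4 CPM. On the other side Gm536 had the largest log2 fold change, at 1.49 and 2.24 CPM in the knockouts against 0.70 and 0.57 CPM in the controls. Dlg1, a scaffold protein gene, had 18.9 and 19.8 CPM against 14.3 and 18.5 CPM, also without overlap, whereas Bdh1, a ketone body enzyme gene, overlapped (8.56 and 12.4 CPM against 31.6 and 8.91 CPM).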

How the data were processed

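Polyadenylated RNA of 4 libraries was measured, 2 per group. Per the labels' protocols, reverse transcription used oligo-dT priming with template switching, and cDNA was amplified in 14 PCR cycles and fragmented with a transposase kit, so neither strand nor molecules are marked. The authors deposited raw read counts for each Ensembl ID. Tools named in the submitters' processing notes are featureCounts 2.0.1, Bowtie2 2.3.5.1 and Trim Galore 0.6.6, with the build GRCm38. No source used here gives the annotation or the strand setting. Of 55487 IDs 55227 matched GENCODE M21 (GRCm38), which gave symbols, coordinates and exonic lengths. TPM used the union of exons.

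edgeR 4.0.16 (R 4.3.3; TMM, filterByExpr, quasi-likelihood F-test with genotype as the only term, two-sided, Benjamini-Hochberg over 17128 genes, threshold 0.05) gave fold changes, and CPM use TMM-scaled library sizes. The SE is the absolute log2 fold change divided by the square root of F. DESeq2 1.42.0, limma-voom (limma 3.58.1), another scaling, other filters, a replicate block and fits without each library were alternatives. Only edgeR with its main settings, DESeq2 and limma-voom were run on simulated data, and the other alternatives were not. DESeq2 fits without each library were added after seeing the data. Adjusted p-values that DESeq2 left empty stayed empty. Distances between profiles used log2 CPM with a prior count of 2. Values called not overlapping have both knockouts beyond both controls in CPM.

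The members, the 6 related gene lists and the 8 marker lists were chosen with earlier results of these data known. Named were the members, genes picked for their role in each list, up to 3 further genes per list with the largest separate differences, and the 5 genes nearest to Apod. Some genes of the related lists are counted in them but not reported here by name. A count of 3 corresponds to 0.154 to 0.209 CPM on the TMM scale, for counting error only. No library was a repeat deposit of another: the chi-square per gene was 79.5 between knockouts and 130 between controls.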

Additional observations from a re-analysis of the deposited data

How the results depend on the processing

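The Apod log2 fold change was 3.65 to 4.43 over the 10 alternatives. Leaving out 1 of 2 libraries in a group can hardly shift it by more than the spread between replicates. This range is therefore a description and no check of the difference. The mean Apod level per length in the knockouts was 3757 TPM with the union of exons and 3661 TPM with the longest transcript. The number of genes called in either direction was 0 in edgeR, 1454 without the low-count filter, 244 with the replicate block, 1416 in DESeq2 and 0 to 918 with 1 library left out. Without the filter edgeR set the prior degrees of freedom to infinity, so a gene's own spread did not enter its p. The replicate numbers name no pairing in the labels. Deviations from the group means of same-numbered libraries correlated at 0.15 across genes, and with 2 pairs this does not establish one. Crabp1 had a negative log2 fold change in 8 of 10 alternatives (-0.26 to 0.29 over all).

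List medians varied as follows. For the members other than Apod the median was -0.75 without the filter, where Ptgds enters, and -0.72 to -0.24 with 1 library left out. For other lipocalins and apolipoproteins it was -0.58 to -0.0921 with 1 library left out, and 0.07 with the stricter filter (at least 5 CPM in 2 libraries). For other intracellular binding proteins it was -0.76 to 0.64, with the negative value without knockout 1. For retinoid genes it was 0.055 with the stricter filter and 0.017 to 0.29 with 1 library left out. For prostaglandin genes it was -0.173 without the filter, -0.22 with the stricter filter, -0.174 in DESeq2 and -0.31 to -0.20 with 1 library left out. For lipoprotein genes it was -0.073 without the filter, -0.14 with the stricter filter, -0.069 in DESeq2 and -0.20 to 0.0808 with 1 library left out. The filters and DESeq2 change which genes enter a list, and apart from that the cause was not tested. Of 31 DESeq2 fits with 1 library left out that gave an adjusted p for the 8 called genes of the related lists, 10 kept the call and 21 lost it, and all kept the direction.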
